A study of Arabidopsis thaliana with 6 samples.

Results

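The cellular RNA of whole Arabidopsis thaliana embryos at the 16-cell stage was profiled on 3 microarrays, chosen by their sample titles out of the 6 arrays of the series, and is described here by itself. The other 3 arrays carry RNA of purified embryo nuclei and enter no step. The plants were kept at 22 °C in a cycle of 16 h light and 8 h dark, the flowers were pollinated by hand, and the embryos were taken out of the seed 72 h later with a micromanipulator. RNA was extracted with TRIzol, and 4.25 ug of biotin-labelled cDNA was made by whole-transcriptome amplification. Genotype and the number of embryos per sample are not stated in the labels used here. The labels call the 3 samples biological replicates. They form 1 group with no group to set against it, so every value below is a description and none has a p-value.

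At the 16-cell stage the embryo proper is made of an outer layer, the protoderm, around inner cells that later give vascular and ground tissue, above a suspensor that links it to the seed. Apical and basal fates are marked by different WUSCHEL-RELATED HOMEOBOX genes, the outer layer by homeodomain factors of the HD-ZIP IV class, and the inner cells by the auxin response factor MONOPTEROS. Genes for seed storage proteins are known to come on much later. A 16-cell embryo lies inside an endosperm and a maternally derived seed coat that holds tannin precursors.

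Each of the 27826 rows of the array table stands for 1 locus. Signal is the log2 of the deposited intensity. A row's mean is taken over the 3 arrays, and the rank runs from 1, the brightest mean, to 27826. Probe sets respond differently to the same amount of RNA, so a rank orders signal on these arrays and not transcript numbers. Values of a gene are given in the order of replicates 1, 2 and 3, and an error is an SD over these 3 arrays. A background limit was set on each array at the mode of its signal plus 3 SD of the dim values, which came to 2.49, 2.50 and 2.56. A row is called above background if it passes the limit on all 3 arrays, at background if it passes on none, and split otherwise.

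By this rule 11394 rows, 40.9% of all, were above background, 11711 (42.1%) were at background and 4721 (17.0%) were split. Of the 10556 rows that have a gene symbol beyond the locus code, 48.5% were above. Protein-coding loci were above in 41.5%, and microRNA loci in 8 of 174. Of 68 small nucleolar RNA loci, which guide the modification of ribosomal RNA, 42 were above background. Across all rows the Spearman correlation of signal was 0.897 between replicates 1 and 2, 0.893 between 2 and 3, and 0.868 between 1 and 3. These correlations run over rows of the same arrays, which are not independent.

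**Figure D1:**
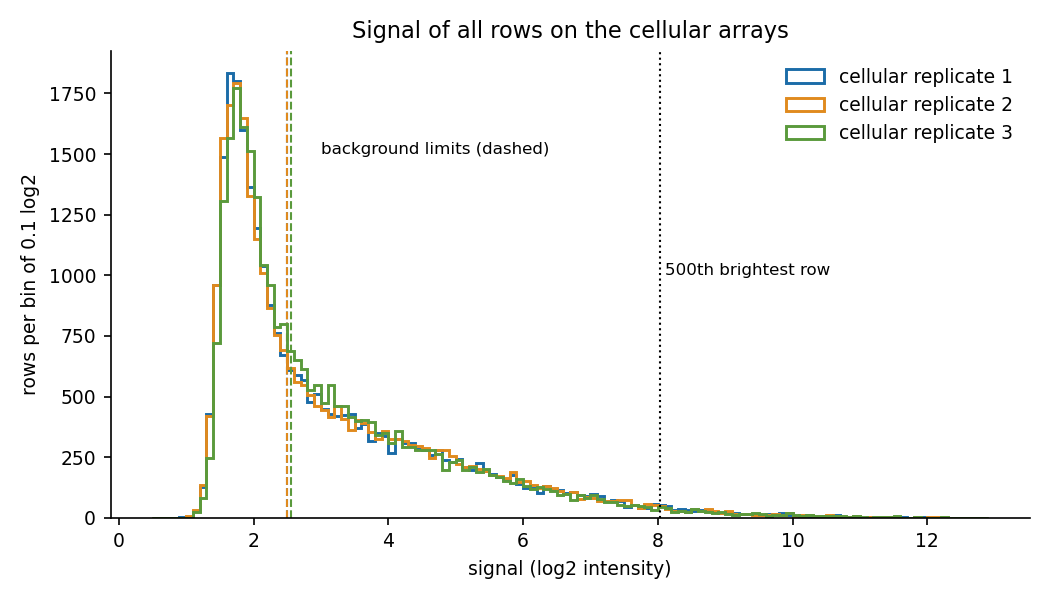
Number of rows per bin of 0.1 log2 against signal (log2 intensity) for the 3 cellular arrays, with each array's background limit dashed and the 500th brightest mean dotted. The 3 curves nearly coincide, with a dim peak below the limits of 2.49 to 2.56 and a long bright tail that passes 8.03 at rank 500.

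The very top of the ranking was filled by organelle loci. Of the 25 brightest rows 12 carry codes of the mitochondrial or chloroplast genome, and 4 more are nuclear loci whose values are identical on all arrays to those of an organelle row. The brightest row was the mitochondrial locus ATMG01190, with 12.02, 12.67 and 12.58. The chloroplast locus ATCG00020 followed at 11.94, 12.22 and 12.26 and shares its values with the transcribed pseudogene AT2G07688 of chromosome 2. Such a pair cannot be told apart on this array. In all, 172 rows in 83 sets share their values with another row, and 35 of them are nuclear loci paired with an organelle row.

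Organelle loci and their nuclear pairs made up 35 of the 100 brightest rows and 65 of the 500 brightest. Only nuclear rows with exactly equal values count as pairs. AT2G07717, with 10.56, 11.31 and 11.54, was close to ATMG00580, with 10.54, 11.24 and 11.50, and is not counted. Of 92 mitochondrial loci 85 were above background and 44 stood among the 500 brightest, which hold 1.8% of all rows. Of 14 chloroplast loci 13 were above background and 6 among the 500 brightest. Of all rows 40.9% were above background. Organelle loci held 6.38%, 10.2% and 10.2% of all summed intensity, lowest on replicate 1. The 500 brightest rows together held 40.3%, 44.7% and 44.0% of the summed intensity.

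Histones were the first named nuclear genes in the ranking. HTB2, which codes for the nucleosome protein H2B, ranked 12 with 11.65, 11.44 and 11.42, a mean of 11.50 ± 0.13. HIS4, a histone H4 gene, ranked 25 with 11.19, 10.88 and 10.93. These were the only 2 rows of the 25 brightest with a gene symbol of their own, and each was highest on replicate 1. Of 32 core and linker histone genes found by name 29 (90.6%) were above background, against 48.5% of rows with a symbol. Among the 500 brightest were 8, against 1.58% of all rows with a symbol. The linker histone-like HON4 had 8.74, 9.30 and 8.65 and the H2A.Z gene HTA11 had 8.48, 8.53 and 8.42. HTA4 was the lowest of the class at 1.3, 1.55 and 1.78, below the limit on each array.

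The remaining rows of the 25 brightest are loci without a symbol in the gene table. No function is given to them here, which does not mean that none is known. Classes were found by words in names, so the histone count, like the ribosomal one below, can miss such loci. AT3G46320 ranked 9 with 11.73, 11.60 and 11.54, AT5G59970 ranked 16 with 11.27, 11.49 and 11.31, and AT1G29418 ranked 22 with 11.17, 11.12 and 10.85. AT3G41762 differed from these in its spread, with 12.33, 10.59 and 10.25, highest on replicate 1. The non-coding locus AT3G41761 showed the same order, with 11.92, 10.29 and 9.93.

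Many genes of protein synthesis also ranked high. Cytosolic ribosomal protein genes found by name made up 4.4% of the 500 brightest rows. Of 39 cytosolic ribosomal protein genes found by name, all 39 were above background and 22 were among the 500 brightest, 56.4% of the class against 1.58% of rows with a symbol. SAG24, which codes for ribosomal protein L10C, had 11.03, 10.77 and 10.91, a mean of 10.90 ± 0.13. Its relative SAC52 (L10A) had 10.69, 10.37 and 10.24, and RPS15A of the small subunit had 10.47, 10.56 and 10.01. The range between arrays was under 0.6 log2 units in all 3. The widest spreads in the class were in RPL16A, with 6.16, 6.58 and 3.82, and RPSAb, with 6.03, 4.91 and 3.83, each lowest on replicate 3.

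The name rule undercounts this class, since loci without such a word in symbol or synonyms were not counted. The 22 among the 500 brightest are therefore a lower bound, as 253 of those rows have no symbol and no list. PGY2, emb2386 and EMB2296, known as large-subunit ribosomal proteins, carry no such word in the gene table and were not counted, although they ranked 28, 61 and 90. Organellar ribosomal proteins had a lower place: 30 of 31 were above background and 0 were among the 500 brightest, with RPL9 of the plastid the brightest at 7.30, 8.22 and 7.25. Of 7 nucleolar assembly genes 7 were above and 5 among the 500 brightest, but this list was drawn up with bright members already seen, so its place is fixed by that choice. They include NUC-L1, a nucleolin that binds ribosomal RNA genes, at 9.68, 9.97 and 9.31, and FIB1, a fibrillarin that methylates ribosomal RNA, at 9.14, 9.53 and 8.91. NAP57, the pseudouridine synthase of the same particles, had 8.98, 9.17 and 8.63.

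Other housekeeping classes were mostly above background, with fewer members at the top. Rows with a symbol were above background in 48.5% and among the 500 brightest in 1.58%. Of 32 translation factors 28 were above and 3 among the 500 brightest, led by FBR12 (eIF5A) with 9.81, 9.72 and 9.99. Of 40 proteasome subunits 39 were above but 1, PAG1, was among the 500 brightest, with 8.39, 8.78 and 8.06. The 14 ubiquitin genes had 10 above and 5 among the brightest. UBQ5, a fusion of ubiquitin with a ribosomal protein, led them with 10.05, 9.91 and 9.36.

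Among 42 chaperone genes 27 (64.3%) were above background, against 48.5% of rows with a symbol, and 6 were among the 500 brightest. The constitutive HSC70-1 had 9.65, 9.53 and 9.03 and the cytosolic HSP90 gene HSP81-3 had 8.79, 8.75 and 9.46. The small heat shock genes HSP21 and HSP17.6II lay at background, with 1.43, 1.56 and 1.68 for HSP21 and 1.42, 1.77 and 1.43 for HSP17.6II. In 24 tubulin and actin genes, 17 above, the brightest were TUA4 with 9.86, 9.96 and 9.87 and TUB3 with 7.97, 8.35 and 8.51. The actins ACT4 and ACT9 were at background, with 1.49, 1.33 and 1.51 for ACT4, and ACT12 was split. The other actins listed were above, among them ACT11 with 7.83, 6.68 and 7.28. Of 31 glycolysis enzymes 25 were above, led by GAPC1, the cytosolic glyceraldehyde-3-phosphate dehydrogenase, with 8.64, 8.95 and 8.5. Of 17 genes named for the respiratory chain or for ATP synthases, V-type ATPases included, 13 were above, with ATPQ the brightest at 9.04, 9.07 and 8.72.

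Genes for surface and wall proteins also reached the top. AGP1, a membrane-anchored arabinogalactan protein, had 10.61, 10.75 and 10.77, nearly level over the arrays. AGP15, a short arabinogalactan peptide, had 9.92, 10.34 and 11.90 and was highest on replicate 3. Of 49 arabinogalactan and fasciclin-like genes 34 (69.4%) were above background, against 48.5% of rows with a symbol. Among the 500 brightest were 6 of them, against 1.58% of such rows. LTP3, a secreted lipid transfer protein, had 9.92, 9.74 and 10.07. LTP6 had 7.87, 9.35 and 10.41, again highest on replicate 3, and of 14 such genes 9 were above background. The arabinogalactan list, too, was drawn up with bright members already seen.

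Of the 500 brightest rows 92 had a symbol but belonged to no list, and 253 had no symbol and no list. The first group holds BTF3, a nascent polypeptide-associated factor, with 10.40, 11.22 and 9.71, and GRP7, a glycine-rich RNA-binding protein, with 10.18, 10.70 and 9.99. It also holds the histone deacetylases HD2B, with 9.82, 9.93 and 9.05, and HD2C, with 8.32, 8.67 and 7.56. GILT and THI2.1, a thionin, were among the least even of this group, with 8.54, 10.55 and 11.40 for GILT and 8.51, 10.22 and 10.96 for THI2.1, each lowest on replicate 1. Protein-coding rows among the 500 brightest had a median gene length of 1578 bases, against 2115 bases for all protein-coding rows.

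**Figure D2:**
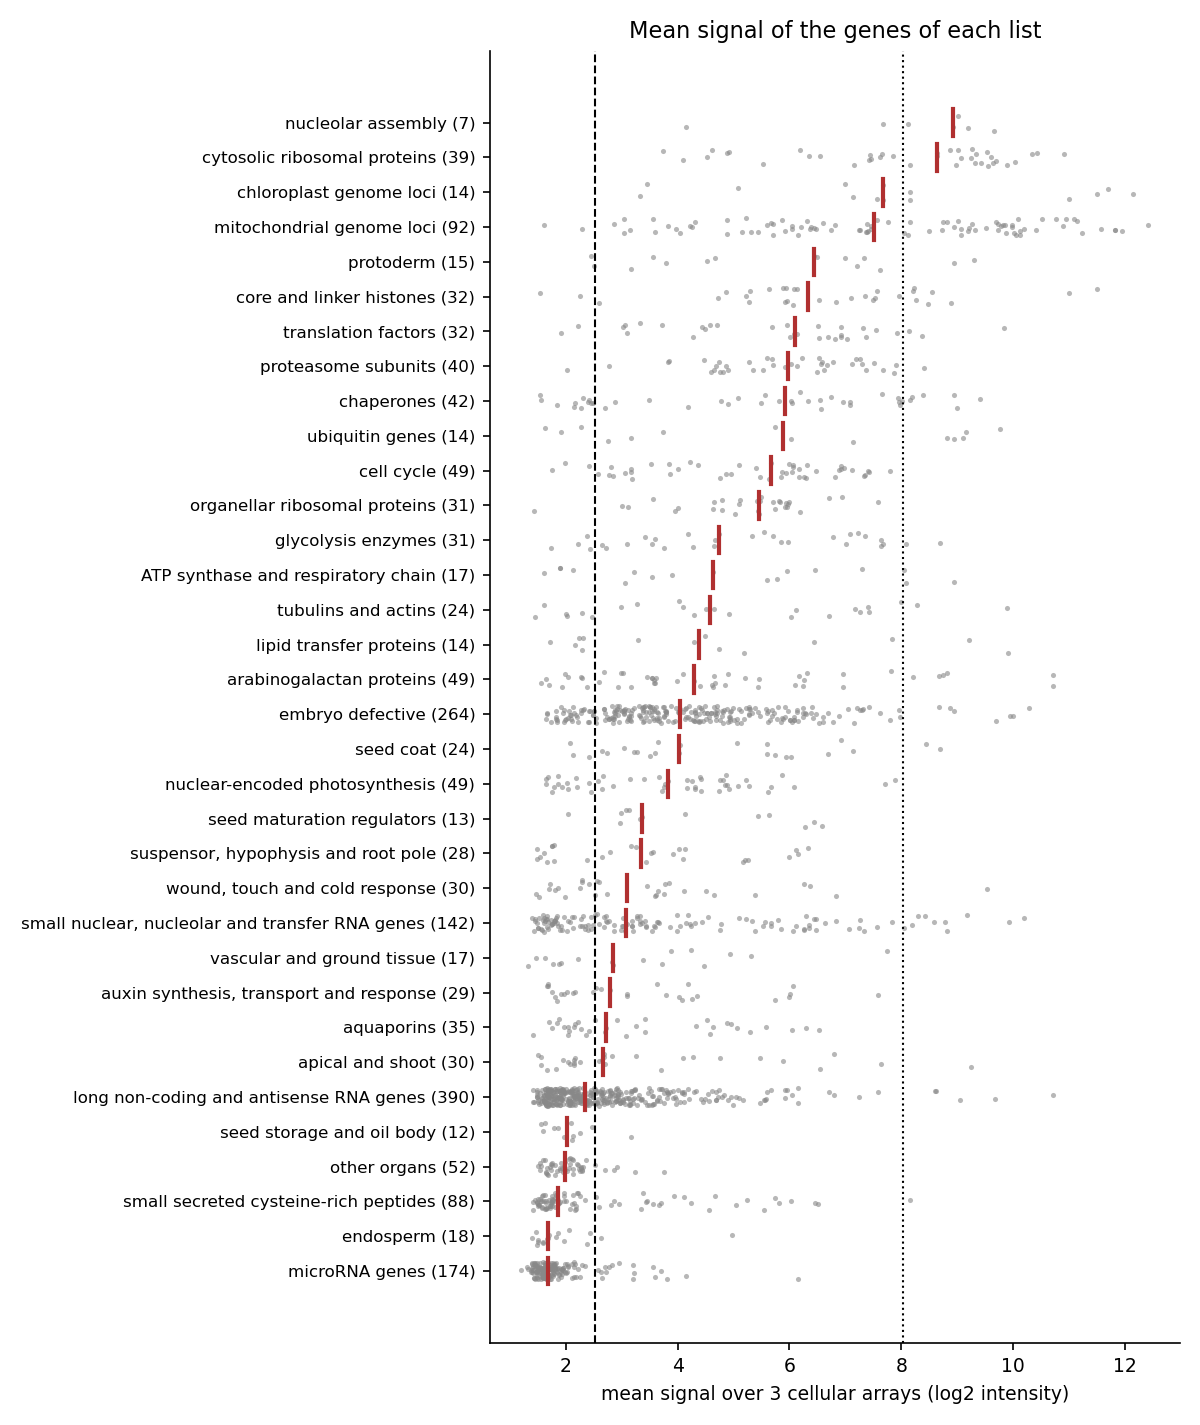
Mean signal over the 3 cellular arrays (log2 intensity) of every gene of each list, 1 grey point per gene, with the list median as a red bar, the number of genes in brackets, the mean background limit dashed and the 500th brightest row dotted. Cytosolic ribosomal, nucleolar (chosen with bright members seen) and organelle genome lists lie farthest right, and the endosperm, microRNA, other-organ, seed storage and cysteine-rich peptide lists are among those left of the limit.

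Known embryo genes were then looked up, which does not test the label of the samples. Of 132 genes from 6 lists of embryo lineage, hormone and maturation genes, 72 (54.5%) were above background, 20 were split and 40 were at background, where rows with a symbol gave 48.5% above and all rows gave 40.9% above and 42.1% at background. Of the 132 genes 3 were among the 500 brightest rows, and these were FDH, CYP78A5 and PDF1.

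Protoderm genes were the most uniformly detected of these lists: 13 of 15 were above background and 0 were at background on all arrays. Rows with a symbol were above background in 48.5%. FDH (FIDDLEHEAD), which elongates fatty acids for the cuticle, had 9.13, 9.38 and 9.39, a mean of 9.30 ± 0.15. PDF1, an outer-layer wall protein gene, had 9.32, 8.74 and 8.79, and the homeodomain gene HDG12 had 8.39, 8.55 and 5.94. The first 2 were even, while HDG12 was over 2 log2 units lower on replicate 3.

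The paired homeodomain factors that specify the epidermis, ATML1 and PDF2, were both above background. ATML1 had 7.65, 7.47 and 6.91 and PDF2 had 7.62, 7.54 and 6.47, both lowest on replicate 3. The receptor kinases GSO1 and GSO2, needed for an unbroken embryonic cuticle, had 7.12, 6.40 and 5.97 for GSO1 and 7.51, 7.10 and 6.39 for GSO2. ACR4, an epidermal receptor kinase, and HDG1 were split, with 2.19, 2.44 and 2.87 for ACR4 and 2.19, 2.52 and 2.67 for HDG1. The lipid transfer gene LTP1 ran the other way from HDG12, with 4.99, 6.45 and 7.87, lowest on replicate 1.

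Of 30 apical and shoot genes 13 (43.3%) were above and 12 at background, a share above that lies near the 40.9% of all rows and below the 48.5% of rows with a symbol. CYP78A5 (KLUH), a cytochrome P450 of organ growth, led it with 9.77, 8.93 and 9.03. WOX2, the homeobox gene of the apical embryo, had 8.71, 8.10 and 6.10, and ESR1 (DORNROSCHEN), an AP2 factor of the embryo apex, had 7.58, 7.33 and 5.50. WOX2 and ESR1 were lowest on replicate 3, by about 2 log2 units from the next array.

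The HD-ZIP III genes, which set upper-side and central fate, were above background in all 5 members listed. PHB had 6.87, 7.01 and 5.78, REV had 6.45, 6.23 and 4.95, and PHV had 3.91, 4.70 and 4.20. HB-15 was lower on replicate 3, with 4.99, 4.26 and 3.06, and HB-8, known for provascular cells, stood just over the limits with 2.50, 3.15 and 2.85. The co-repressor TPL had 5.40, 5.92 and 5.09.

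Meristem and boundary genes were at background or near it. WUS, of the stem cell organiser and known to start in few inner apical cells at about this stage, had 1.46, 1.4 and 1.63 and CLV3, the stem cell peptide gene, had 1.57, 1.51 and 1.60. STM, which keeps meristem cells undifferentiated, had 2.12, 2.06 and 2.26. CUC1 and CUC2, of the boundary between cotyledons, had 2.41, 1.82 and 2.23 for CUC1 and 2.15, 2.21 and 2.09 for CUC2, all below the limits. CUC3 was split, with 2.48, 2.52 and 3.06, above the limit on replicates 2 and 3. ANT, an AP2 factor of lateral organs, was with WUS the lowest of the list, at 1.79, 1.23 and 1.64. The KANADI genes KAN1 and KAN2 were at background too, with 1.85, 2.04 and 2.32 for KAN1 and 1.83, 1.87 and 1.77 for KAN2.

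In the vascular and ground tissue list 8 of 17 (47.1%) were above and 7 at background, near the 48.5% of rows with a symbol. MP (MONOPTEROS) was the brightest with 7.94, 8.06 and 7.22, a mean of 7.74 ± 0.45. Its inhibitor BDL, an Aux/IAA protein, had 5.19, 3.96 and 4.28. SCR, a GRAS factor of ground tissue, had 5.56, 5.42 and 4.97, and its partner SHR had 3.23, 3.27 and 3.63. These 4 genes were above the limits on all arrays.

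Targets of MP did not share one level. TMO5, a basic helix-loop-helix gene of vascular cells, had 4.74, 4.31 and 3.67, its relative T5L1 had 4.73, 4.02 and 2.9, and their partner LHW had 4.73, 5.19 and 4.91. TMO7, whose protein moves to the hypophysis, was at background with 1.85, 1.72 and 1.72, as was TMO6 with 1.98, 1.87 and 1.9. LOG4, a cytokinin-activating enzyme, was split, with 4.0, 5.48 and 1.70 and below the limit on replicate 3 alone. NUC and GATA23 were the lowest, with 1.44, 1.54 and 1.4 for NUC and 1.42, 1.24 and 1.34 for GATA23.

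Of 28 basal and root pole genes 15 (53.6%) were above and 9 at background, near the 48.5% above of rows with a symbol. WOX9 had 7.24, 5.69 and 6.07 and WOX8 had 5.39, 5.37 and 4.74, the homeobox genes of the basal lineage. The AP2 factors of the root pole followed, with BBM at 6.95, 5.97 and 5.57, PLT2 at 7.19, 5.90 and 4.91 and PLT1 at 6.13, 5.75 and 3.87. HAN, a GATA factor that bounds the proembryo, had 7.44, 5.96 and 4.97. BBM, PLT1, PLT2 and HAN were all highest on replicate 1 and lowest on replicate 3.

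Of the zygote polarity pathway YDA, a MAP kinase kinase kinase, had 3.61, 3.56 and 3.50, nearly equal on the 3 arrays, and MPK6 had 5.01, 5.66 and 4.95. SSP, the paternally supplied activator of YDA, was at background with 1.45, 2.00 and 1.81. WRKY2, an activator of WOX8, had 4.48, 2.96 and 3.13. Other root pole genes were at background: WOX5 of the quiescent centre had 1.69, 1.95 and 1.72, SMB of the root cap had 1.4, 1.9 and 1.53, and WIP4 had 1.56, 1.22 and 1.66. ARF13 was next to lowest with 1.44, 1.49 and 1.55. The suspensor regulators ARF9 and IAA10 parted, with ARF9 above at 5.18, 3.76 and 2.84 and IAA10 split at 2.43, 2.02 and 2.68.

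Of 29 auxin genes 14 were above and 11 at background, a share above of 48.3% against 48.5% of rows with a symbol. PIN7, an efflux carrier known from the suspensor side, was at background with 2.06, 2.12 and 1.88. The influx carriers LAX1 and AUX1 had 6.78, 6.38 and 4.86 for LAX1 and 6.35, 5.57 and 5.32 for AUX1. The receptor AFB2 had 6.36, 6.15 and 5.66 and the transporter ABCB1 had 5.07, 5.81 and 7.08. ABCB1 was highest on replicate 3, unlike LAX1 and AUX1, which were lowest there.

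Auxin synthesis genes were dim. TAA1, the aminotransferase of the first step, had 4.86, 4.48 and 3.41, and YUC4, a flavin monooxygenase of the second, had 3.67, 2.66 and 2.99. The other 6 YUC genes listed, YUC1, YUC3, YUC8, YUC9, YUC10 and YUC11, were at background, with YUC10 the lowest at 1.59, 1.42 and 1.96. PID2, a kinase of the PINOID family, was next lowest with 1.81, 1.62 and 1.60, while PID was above with 4.67, 3.49 and 3.21.

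Of 13 maturation regulators 9 (69.2%) were above background, against 48.5% of rows with a symbol. At background was 1, L1L, with 2.24, 2.04 and 1.81. LEC1, a CCAAT-box subunit that keeps embryo identity, had 6.60, 5.99 and 6.24, and LEC2, a B3 factor, had 6.76, 6.88 and 5.67. FUS3 was dimmer with 3.65, 2.98 and 3.33, and ABI3 was split with 3.38, 3.45 and 2.40. AGL15, a MADS-box gene of embryo tissue, was the brightest by mean and the least even, with 9.23, 6.0 and 4.54, 25.8-fold between its highest and lowest array. NF-YC2, the fourth brightest, had 6.23, 5.0 and 5.65. AGL18 stood just over the limits with 2.59, 2.68 and 3.66.

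**Figure D3:**
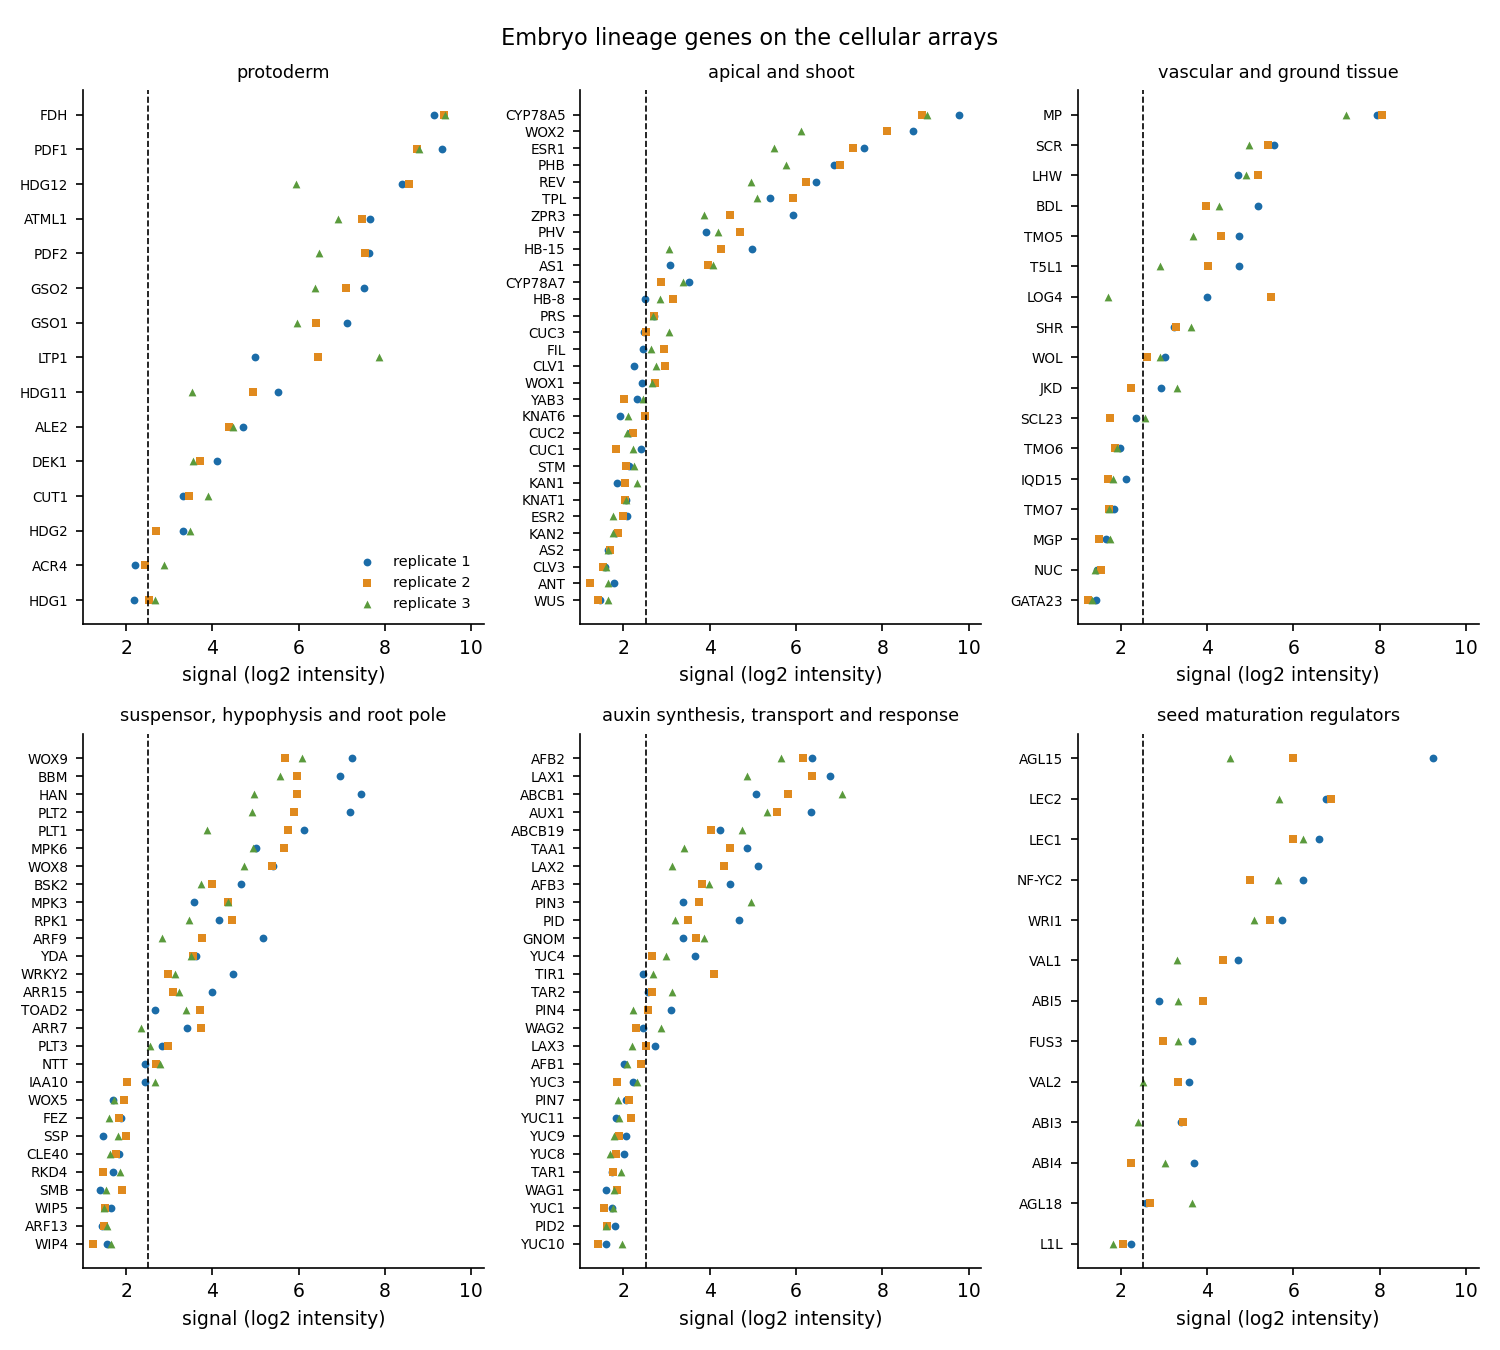
Signal (log2 intensity) of the genes of the 6 embryo lists, 1 auxin gene left out, on each cellular array, with blue circles for replicate 1, orange squares for replicate 2, green triangles for replicate 3 and the mean background limit dashed. FDH, PDF1, CYP78A5, MP and WOX2 stand far right of the limit, while WUS, CLV3, TMO7, WOX5, PIN7 and L1L stand left of it.

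Genes of later stages and of neighbouring tissues gave different pictures. Of 12 seed storage and oil body genes 0 were above background, against 48.5% of rows with a symbol, and 11 were at background. The exception was OLEO1, an oleosin, split with 3.71, 2.35 and 3.46. The cruciferin CRU3 had 2.24, 2.33 and 2.20 and the albumin gene SESA4 had 1.47, 1.61 and 1.60.

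Of 18 endosperm genes 1 (5.56%) was above background, against 48.5% of rows with a symbol, and 14 were at background. SUC5, a sucrose transporter, was the one above, with 4.27, 5.58 and 5.07. The imprinted genes PHE1 and FWA were split, with 2.12, 2.49 and 3.28 for PHE1 and 2.04, 2.40 and 2.89 for FWA, and AGL28 passed the limit on replicate 3 alone, with 1.83, 1.92 and 3.39. The defining genes AGL62, needed for syncytial divisions, FIS2 and ZOU were at background, with 1.34, 1.5 and 1.56 for AGL62, 1.5, 1.58 and 1.71 for FIS2 and 2.33, 1.96 and 1.87 for ZOU. The list median was 1.71, 1.68 and 1.79, below the limit on each array.

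Of 52 genes of pollen, anthers and root hairs 41 were at background and 2 (3.85%) above, against 48.5% of rows with a symbol. The 2 above were VGD1, a pollen pectin esterase, with 5.36, 3.16 and 2.75, and RHS19, a root hair gene, with 3.46, 3.48 and 2.77. The median of this list was 1.92, 1.96 and 1.98.

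Cell division genes were broadly detected, where 48.5% of rows with a symbol were above background. Of 49 genes 42 were above background and 2 were at background, CYCB1;5 with 1.97, 1.98 and 2.00 and CYCA2;1 with 1.89, 1.86 and 1.53. CDC20.1, an activator of the anaphase promoting complex, had 7.97, 7.98 and 7.45. The mitotic cyclin CYCB1;2 had 7.63, 7.51 and 7.13, and HIK, a kinesin of the division plane, had 7.41, 7.70 and 7.10. None of the 49 was among the 500 brightest.

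The list median of the division genes was 6.34, 5.92 and 4.65, so replicate 3 was 1.68 log2 units below replicate 1. Of the 49 genes 41 were lowest on replicate 3, against 34.2% of all rows and 42.5% of rows above background. CYCA3;1, an S-phase cyclin, had 4.98, 5.39 and 2.29, and CYCA2;3 had 6.43, 5.22 and 3.64, the 2 widest ranges of the list. Replication genes followed the same order, with MCM5 at 7.40, 6.97 and 5.06 and PCNA1 at 6.69, 6.65 and 4.63. KN, the cell plate syntaxin, and CDKA;1, the main cell cycle kinase, were among the 5 genes highest on replicate 3, with 6.71, 6.66 and 7.09 for KN and 4.25, 4.24 and 4.60 for CDKA;1.

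Seed coat genes showed the opposite order. Of 24 genes 18 (75.0%) were above background, against 48.5% of rows with a symbol. At background was 1, TT10, a laccase, with 1.94, 2.16 and 2.30. The list median was 3.12 on replicate 1, 4.29 on replicate 2 and 5.12 on replicate 3. Replicate 3 exceeded replicate 1 in 22 of 24 genes, against 50.7% of all rows. In 20 genes replicate 1 was the lowest array, against 34.2% of all rows, and in 19 replicate 3 was the highest, against 36.3%. The summed intensity of the list was 568, 1846 and 4103.

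The flavonoid and tannin enzymes were the brightest of these. LDOX, the anthocyanidin synthase, had 7.15, 9.14 and 9.77, and TT4, the chalcone synthase that opens the pathway, had 6.78, 8.59 and 9.96. BAN, the anthocyanidin reductase that commits to tannins, had 5.25, 7.44 and 8.73. TT7, a flavonoid hydroxylase, had 4.79, 7.20 and 8.77. All 4 were lowest on replicate 1 and highest on replicate 3.

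The regulators parted. TT2, the MYB factor of the tannin genes, had 3.12, 6.08 and 7.62, STK, a MADS-box gene of ovules and seeds, had 3.68, 5.79 and 7.31, and MYB5 had 3.31, 4.84 and 7.04. TTG2, a WRKY factor, had 2.13, 3.08 and 5.30. These 4 had the same order of arrays, and TT2 had the widest range of the list, 22.7-fold. TT8, the basic helix-loop-helix partner of TT2, and TT1 were split and level, with 2.68, 2.46 and 2.83 for TT8 and 2.91, 2.41 and 2.87 for TT1. The shared cofactor TTG1 was level too, with 3.12, 3.33 and 3.24, as was MUM4, a mucilage sugar enzyme, with 5.91, 5.45 and 5.87.

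In whole-embryo samples the number of cells of a type and the RNA per cell cannot be told apart, and how many seed coat cells came along with the embryos was not measured. The part of seed coat RNA in the other differences between replicates was not tested. Replicate 3 was above replicate 1 in 50.7% of all rows. In the lineage lists it was so in 6 of 15 protoderm, 14 of 30 apical and 5 of 17 vascular and ground genes. It was also so in 10 of 28 basal, 14 of 29 auxin and 2 of 13 maturation genes. Of the 132 genes 12 were at least 4-fold apart between arrays, against 4.75% of all rows and 8.21% of rows above background on at least 1 array.

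Photosynthesis genes had the same order of arrays as the seed coat list. Of 49 nuclear genes for antenna, photosystem and Rubisco proteins 31 (63.3%) were above background, against 48.5% of rows with a symbol. Replicate 3 exceeded replicate 1 in 45 of the 49, against 50.7% of all rows. The list median was 3.30, 3.92 and 4.06. RBCS1A, a small subunit of Rubisco, had 7.11, 7.96 and 8.59 and CAB3, an antenna protein, had 5.75, 8.81 and 8.59. PSBO1, of the oxygen-evolving complex, had 4.78, 6.31 and 7.18. RBCS1B had the widest range, with 2.48, 4.02 and 6.01.

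The organelle genomes were lowest on replicate 1 but did not differ in the same way between the other arrays. The mitochondrial list median was 7.06, 8.18 and 8.03, with 74 of 92 loci lowest on replicate 1. The chloroplast median was 6.94, 8.02 and 8.28, with 11 of 14 lowest there. ATMG00550 had the widest range of the mitochondrial loci, with 3.29, 7.31 and 6.5.

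Stress genes were higher on replicate 3 by a smaller step. Of 30 wound, touch and cold genes 16 (53.3%) were above background, near the 48.5% of rows with a symbol. The list median was 2.92, 3.07 and 3.61. TCH2, a calmodulin-like touch gene, was the brightest with 9.05, 9.57 and 10.01, followed by ERF4 with 6.5, 6.70 and 7.32 and TCH4, a wall-loosening enzyme, with 6.23, 6.48 and 6.41. WRKY46 and RRTF1 had the widest ranges, with 1.27, 2.71 and 3.70 for WRKY46 and 3.34, 4.94 and 5.70 for RRTF1. The cold regulators CBF1 and CBF3 were at background, with 1.62, 1.70 and 1.8 for CBF1 and 1.32, 1.58 and 1.47 for CBF3. The part of handling in these signals was not tested.

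Several housekeeping lists stood lowest on replicate 3, the lowest array in 34.2% of all rows and in 42.5% of rows above background. The cytosolic ribosomal median was 8.90, 8.76 and 8.36, with 25 of 39 genes lowest there. The histone median was 6.72, 6.63 and 6.09, with 22 of 32. The nucleolar list had a median of 8.98, 9.17 and 8.36, with all 7 genes lowest there. The ubiquitin median, 5.66, 5.72 and 6.07, was highest on replicate 3 instead, as were 8 of the 14 genes. Among ubiquitin genes UBQ11 was the least even with 5.91, 7.24 and 8.29. The tubulin and actin median, 4.62, 4.46 and 4.87, was also highest on replicate 3. Only 9 of its 24 genes were highest there, against 36.3% of all rows, and 10 were highest on replicate 2. Of 264 genes named for embryo-defective mutants 203 (76.9%) were above background, against 48.5% of rows with a symbol. Of the 264 genes 153 were lowest on replicate 3, and the list median was 4.28, 4.16 and 3.72. The brightest of these were emb2386 with 10.65, 10.64 and 9.54 and HOG1, the S-adenosylhomocysteine hydrolase needed for methylation, with 10.11, 10.24 and 9.64. The least even was emb2191, a transfer RNA deaminase, with 6.48, 2.48 and 1.98.

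**Figure D4:**
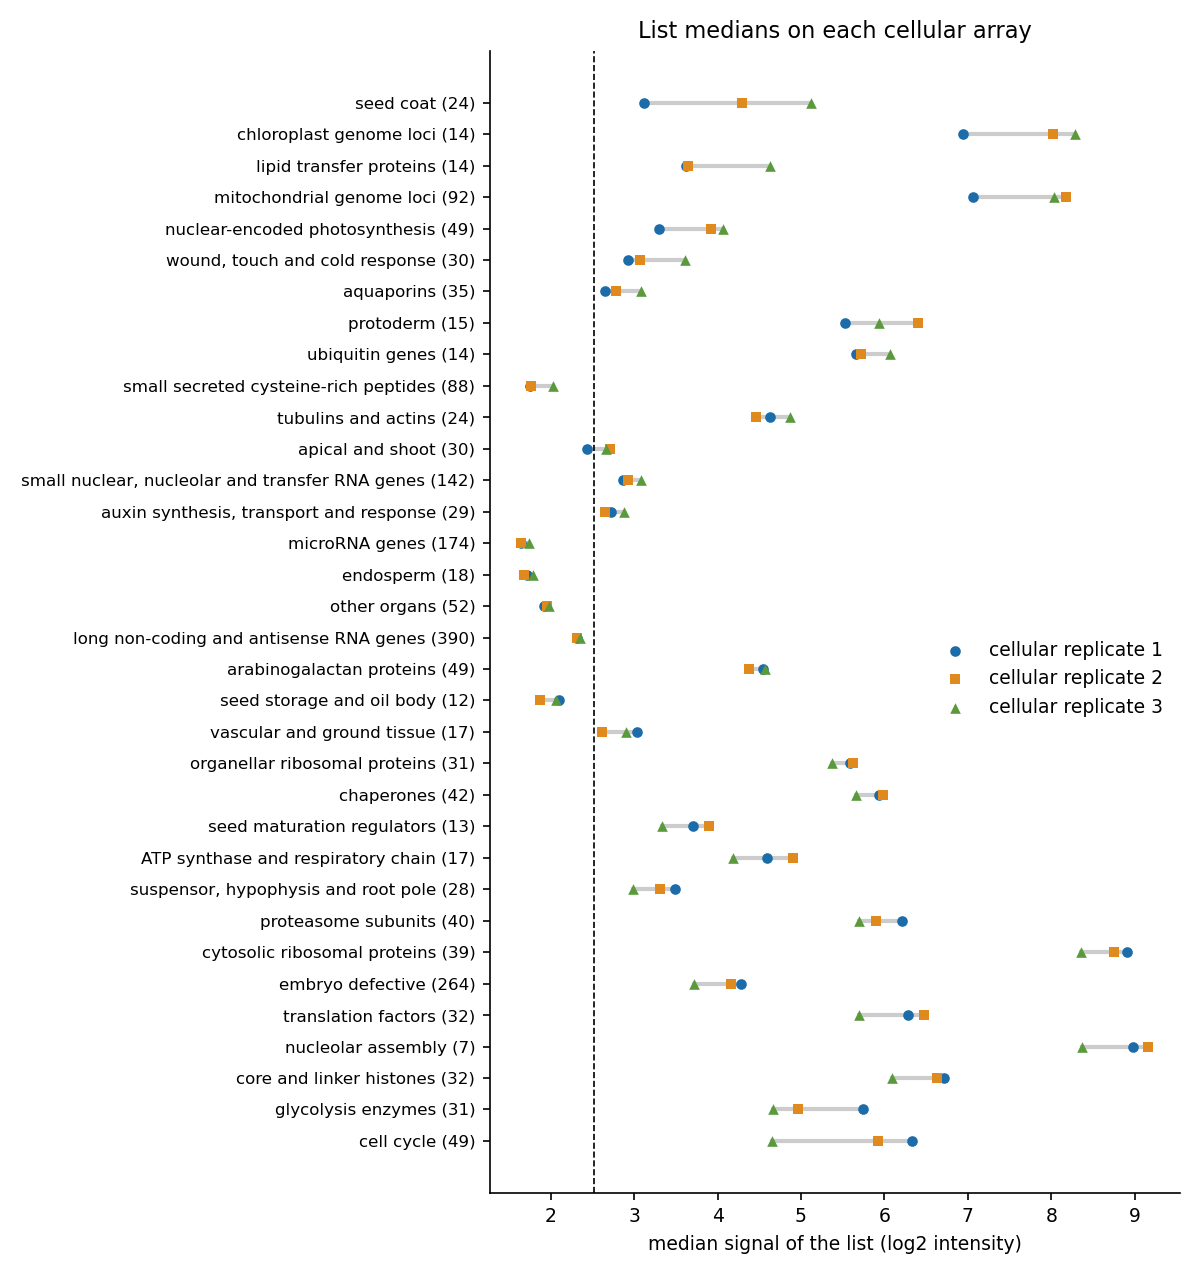
Median signal (log2 intensity) of each gene list on each cellular array, with blue circles for replicate 1, orange squares for replicate 2, green triangles for replicate 3, the number of genes in brackets and the mean background limit dashed. Lists are sorted by replicate 3 minus replicate 1, from the seed coat list at the top (3.12, 4.29 and 5.12) to the cell cycle list at the bottom (6.34, 5.92 and 4.65).

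Over all rows 1323 (4.75%) were at least 4-fold apart between their highest and lowest array. By pairs, 968 rows were that far apart between replicates 1 and 3, 452 between 2 and 3 and 440 between 1 and 2. The odd array of a row is the extreme that lies farther from the middle value. It was replicate 3 in 590 rows, 358 of them high and 232 low. It was replicate 1 in 542 rows, 212 high and 330 low, and replicate 2 in 191, 143 high and 48 low. Among rows above background the median range was 0.81 log2, and among the 500 brightest it was 0.73.

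Among the 13961 rows whose mean passed the mean limit of 2.52, the 20 widest ranges ran from 5.29 to 8.34 log2, and the 21st was 5.24. Replicate 3 was the highest array in 13 of these 20, replicate 1 in 6 and replicate 2 in 1. Of the 20 rows 15 have no symbol of their own. Since each replicate is 1 array, a row that stands out on 1 array cannot be told apart from an error of that array.

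MEO (MEIDOS), a SKP1-like adaptor of ubiquitin ligases, had the widest range of all, with 1.74, 3.02 and 10.08, 324-fold between replicates 3 and 1. PFA-DSP3, an atypical dual-specificity phosphatase, had 2.72, 3.03 and 8.41. AT1G49715 and AT1G05577 were also high on replicate 3, with 1.94, 3.93 and 8.72 for AT1G49715 and 5.39, 2.99 and 9.06 for AT1G05577. In MEO and PFA-DSP3 replicates 1 and 2 both lay close to the background limit.

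Rows high on replicate 1 alone included AT1G78172 with 10.89, 2.93 and 4.51 and MIR775, a microRNA gene, with 8.00, 2.55 and 1.88. HTR11, a histone H3-like gene, had 10.79, 4.90 and 4.80, unlike the other histones, and probes cannot always tell near-identical H3 copies apart. AT3G01319 had 8.08, 2.71 and 2.17. In all 4 the other arrays lay within 1.6 log2 units of each other.

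Rows low on replicate 1 alone were led by AT5G63087 with 1.93, 8.09 and 8.84, AT2G30810 with 3.19, 8.02 and 9.32 and AT5G23212 with 2.12, 7.51 and 8.13. Their other 2 arrays were all above 7. AT4G12890 also belongs here, with 1.66, 4.95 and 7.23.

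Replicate 2 was seldom the odd array. GGR, a subunit for making geranylgeranyl diphosphate, was low there with 7.74, 2.50 and 6.43, and HSP18.2, a small heat shock gene, with 5.60, 2.46 and 4.47. AT2G24683 and LCR23, a cysteine-rich peptide gene, were high there, with 1.96, 7.16 and 2.13 for AT2G24683 and 1.88, 6.16 and 2.61 for LCR23. Low on replicate 3 alone were AT5G22608 with 6.64, 7.53 and 1.93, AT2G05185 with 5.99, 4.86 and 1.58 and AT1G31400 with 7.40, 7.05 and 3.29.

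**Figure D5:**
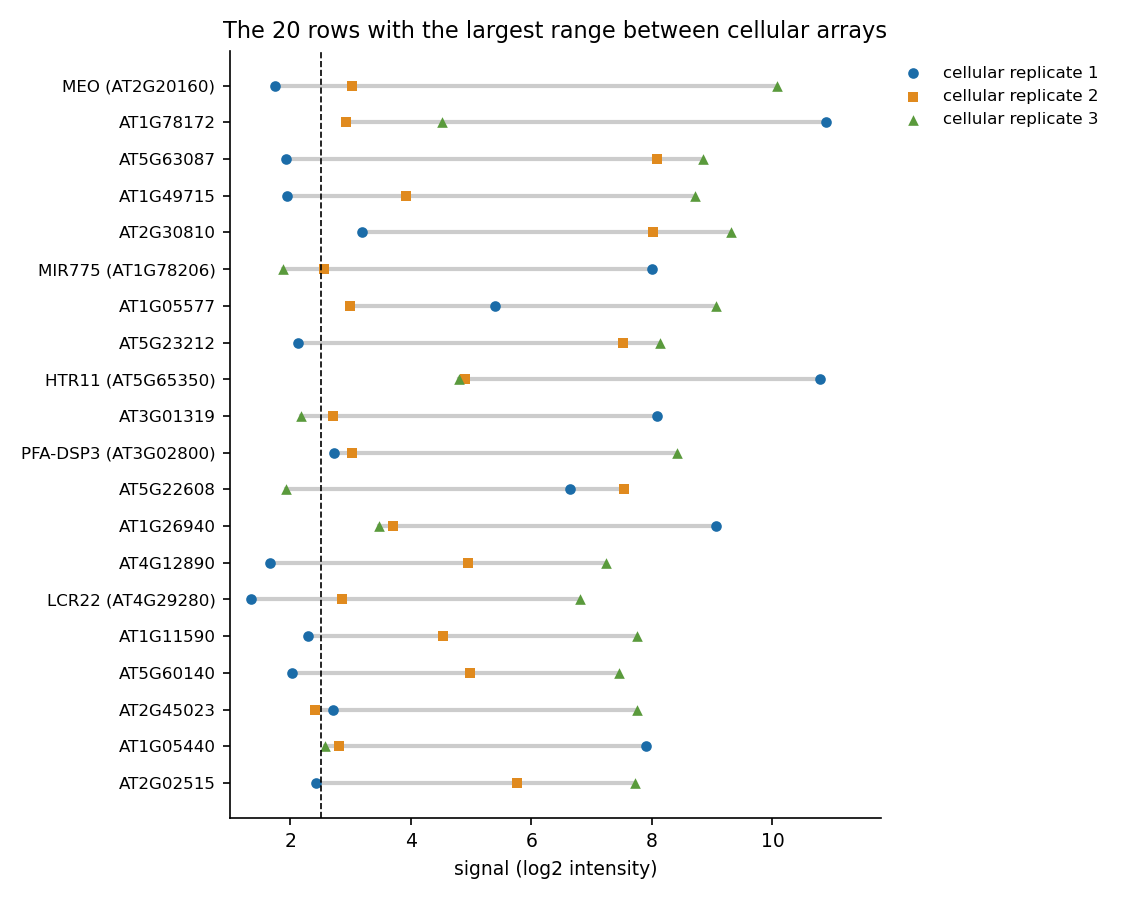
Signal (log2 intensity) on each cellular array of the 20 rows with the widest range among those with a mean above the mean background limit (dashed), with blue circles for replicate 1, orange squares for replicate 2 and green triangles for replicate 3. MEO at the top runs from 1.74 to 10.08, and green triangles are the rightmost point in 13 of the 20 rows.

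Some small cysteine-rich peptide genes were uneven between the arrays. Of 88 genes of the LCR and defensin type, which code for short secreted peptides, 13 (14.8%) were above background and 54 were at background. Rows with a symbol were above background in 48.5%. LCR68 was the brightest by mean, with 8.54, 8.48 and 7.48, and LCR48 had 5.79, 6.0 and 7.76. LCR35 had 5.22, 5.57 and 8.59, highest on replicate 3.

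Of these 88 genes 18 were at least 4-fold apart, 20.5% of the class, against 4.75% of all rows. The median range of the class was 0.51 log2 and that of all rows 0.51, so the wide ranges lie in part of the class. LCR22 had the widest range with 1.35, 2.86 and 6.81, then LCR24 with 1.62, 5.90 and 6.51. LCR22 was above the limit on replicates 2 and 3, as was LCR24. LCR36 was highest on replicate 2 instead, with 2.37, 7.21 and 5.56.

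Lipid transfer genes had a median of 3.62, 3.64 and 4.62, and 11 of 14 were higher on replicate 3 than on replicate 1. Among 35 aquaporin genes 17 (48.6%) were above background, near the 48.5% of rows with a symbol. PIP1C, a plasma membrane water channel, was the brightest at 6.35, 6.86 and 6.39. PIP2B had the widest range of the class with 4.75, 7.16 and 6.23. Of 8 microRNA loci above background MIR156b was the brightest, with 6.83, 5.34 and 6.26, and 147 of 174 were at background. These rows read precursor transcripts at the locus, not mature microRNAs. MIR167b and MIR171b were split, with 1.38, 3.20 and 5.04 for MIR167b and 4.98, 2.49 and 2.16 for MIR171b. Of 142 loci for small nuclear, small nucleolar and transfer RNAs 64 (45.1%) were above background, near the 40.9% of all rows. Among them was U6-1, a spliceosomal RNA gene, with 9.72, 6.60 and 9.45, lowest on replicate 2. Of 390 long non-coding and antisense loci 120 (30.8%) were above, fewer than the 40.9% of all rows. Among the 500 brightest were 5 (1.28%), against 1.8% of all rows. Whether the labelling reports strand is not stated in the sources used here, so antisense loci cannot be told apart from the genes they overlap.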

How the data were processed

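The deposited table gives intensities on a linear scale, which the authors normalised by RMA, per the submitters' processing notes. The RMA version, array design, probe set definitions and genome build are not given in the sources used here. The log2 of each deposited intensity was taken once, with no further scaling and no detection calls. Symbols come from the RefSeq gene table of TAIR10.1, which matched 27241 of 27826 rows, and 10556 rows (37.9%) have a symbol other than the locus code. Of 313 symbols written in the lists 306 matched, and classes were found by words in symbols and synonyms.

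The members and lists were chosen with earlier results of these data known, and some memberships were corrected after a first look. Genes were named by rule: the 25 brightest rows, in each lineage list the 4 highest and 2 lowest by mean and a set of key regulators, in each other list the 3 brightest and 2 widest ranges, the 20 widest rows, and the 4 widest of each replicate pattern. Not all of these are printed, 1 auxin gene is counted in its list but not reported here, and any other gene named was chosen after its values were seen.

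No test was run, since the 3 arrays of 1 group hold no comparison, and their number limits the precision. The labels do not say whether the replicates came from separate plants. Alternatives used limma 3.58.1 in R 4.3.3 (quantile and cyclic loess), other limits, and 1 replicate left out. The rest used Python 3.11.15 with pandas 2.3.3, numpy 2.4.6 and scipy 1.17.1, and the steps were tested on simulated data.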

Additional observations from a re-analysis of the deposited data

How the results depend on the processing

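Of 42 alternative values 38 were classed as the same as the reported value, 0 as reversed and 4 as moved. Values classed as the same could still differ, as with 968 rows at least 4-fold apart without replicate 2, against 1323. The cytosolic ribosomal genes found by name made up 4.4% of the top 500, 7.5% of the top 200 and 2.9% of the top 1000. These shares differ by construction and are lower bounds for the class. Rows at least 4-fold apart numbered 1323 with all arrays, 452 without replicate 1 and 440 without replicate 3 (440 to 968 with 1 array left out), since fewer arrays give narrower ranges. Rows above background ranged from 11310 to 13961 over the limits and calling rules tried, and lineage genes above it from 71 to 87. Both upper values came from asking only that the mean of the 3 arrays pass the mean limit. The seed coat difference between the medians of replicates 3 and 1, 2.00, was 2.05 after quantile and 2.13 after cyclic loess scaling. That of the division genes, -1.68, was -1.57 and -1.39. No paired analysis was possible because only 1 group is described.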

Other observations

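A few genes known from pollen and the egg cell were highest on replicate 1. They were picked after their values were seen. VGD1, a pollen pectin esterase, had 5.36, 3.16 and 2.75. The pollen arabinogalactan genes AGP6 and AGP11 had 4.84, 2.80 and 3.13 for AGP6 and 5.27, 2.85 and 2.73 for AGP11, and AGP23 had 5.11, 3.59 and 1.94. EC1.5, a secreted egg cell peptide gene, had 6.76, 2.28 and 2.17, while its relative EC1.2 had 3.33, 3.56 and 4.37 and EC1.1 had 1.28, 1.68 and 1.57. The 52 genes of pollen, anthers and root hairs as a list had medians of 1.92, 1.96 and 1.98, which differ little between the arrays.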
